A study of Mus musculus with 9 samples.

Results

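The genes described here are 10 genes that mark macrophages: Csf1r, Adgre1 (named Emr1 on the array), Cd68, Mrc1, Cd14, Fcgr1, Fcgr3, C1qa, C1qb and Tyrobp. They were chosen by name, and 15 of the 41174 probes on the array carry one of these names. Of these, 13 probes were well above background in the sample dye on at least 4 of the 9 arrays and were kept, so that all 10 genes were measured among the 18270 genes tested. Well above background is the scanner software's own call for a spot. Adgre1, Fcgr1 and Fcgr3 have 2 probes each and Csf1r has 3; the others have 1.

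RNA came from mammary tumours of 2 kinds, MMTV-Wnt-1 and MMTV-Her2, named after transgenes whose Wnt-1 or Her2 (a receptor tyrosine kinase) comes under control of a mouse mammary tumour virus promoter. The labels name both tumour models for every array, so the models cannot be separated. On all arrays the cells had been sorted fresh from the tumour for lack of green fluorescent protein (GFP), and the labels do not say what GFP marked. The 5 Fzd8-CRD arrays hold cells given Fzd8-CRD, the Wnt-binding part of Frizzled 8 as a soluble protein, a decoy for Wnt ligands, and the 4 control arrays hold cells labelled as controls. What the controls received is unclear, because the treatment field names the inhibitor on all 9 arrays. Sample RNA carried the dye Cy5 and a pooled reference RNA the dye Cy3. The comparison asked how blocking Wnt ligands changes expression in the sorted tumour cells.

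Macrophages are phagocytes that enter tumours as blood monocytes or arise from cells resident in the tissue. They live on signals through the receptor encoded by Csf1r, take up antibody-coated particles through Fc gamma receptors, and sense microbial products through CD14. In mammary tumours they are known as an abundant immune cell, and in many tissues they are the main source of the complement component C1q.

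The probes that carry the results are shown by their first 30 of 60 bases, as written in the array files with mm8 coordinates of the whole probe. Mrc1 is shown because it was the gene past the threshold, C1qa, C1qb and Tyrobp because their differences were larger than 1 log2 unit in size, and the pairs of Fcgr1 and Fcgr3 because probes of 1 gene gave different values. The Mrc1 probe lies at chr2:14249431-14249491 (plus strand), C1qa at chr4:136168570-136168629 (minus) and C1qb at chr4:136152739-136152798 (minus). The Tyrobp probe spans chr7:30124392-30126119 (plus), a stretch of 1728 bases for a probe of 60. The first Fcgr1 probe lies at chr3:96368314-96368360 (minus) and the second at chr3:96369880-96369943 (minus). The first Fcgr3 probe lies at chr1:172888191-172888266 (minus) and the second at chr1:172890673-172890732 (minus).
Mrc1: ttgagaactgtatttatccacatgtagaat
C1qa: ccggccagctttctcagccattcggcagaa
C1qb: attctggggactacggggctacacagaaag
Tyrobp: ggacccggaaacaacacattgctgagactg
Fcgr1, first probe: accctgaaactgtgggaccatggcatgcaa
Fcgr1, second probe: tctatgtgaaaatacacaggctgcagagaa
Fcgr3, first probe: ttacaagcaggccgggatgtttggttcttc
Fcgr3, second probe: ctacaaaagtaatttctctatcccaaaagc
Probes of the same gene had no shared run longer than 6 bases, so they read separate stretches of the transcript. Over all 26835 kept probes 14.6% changed, and of the 13 macrophage probes 1 did (Mrc1).

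All 4 control arrays lay on 1 slide scanned on 1 day, and the 5 Fzd8-CRD arrays on 4 further slides, read 367 or 378 days after the controls. Slide, scan day and treatment can therefore not be told apart. Control replicate 2 stood apart: the correlation of its log2 ratios with any of the other 8 arrays, over all genes, was 0.618 to 0.737, and among the remaining controls 0.898 to 0.979. The ratio difference of each of the 10 genes is therefore also given without it, and that of any other named gene where leaving it out ended the call or moved the fold by more than 1.5 times. In the reference dye by itself, 59.0% of genes differed between the groups, so Cy5 alone is given beside the ratio. In Cy5 the share of probes passing the background call ran from 52.5% to 60.0% on Fzd8-CRD arrays and from 63.8% to 70.8% on controls. Every Fzd8-CRD array thus detected fewer probes than any control, so lower detection of 1 gene need not be particular to that gene. Among the cell type markers, 14 of 14 epithelial genes were well above background on every array. On each array 9 or 10 of the 10 macrophage genes were well above background, and Mrc1 was the gene missing where it was 9.

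Across the 10 genes, 1 (Mrc1) fell with Fzd8-CRD and 0 rose, where 14.3% of all genes tested changed (7.75% fell and 6.60% rose). The 10 differences, Fzd8-CRD minus control on the log2 ratio, were all below 0, as were those of 57.0% of all genes. Their median was -0.65, against -0.07 over all genes. At an unadjusted p under 0.05, limma gave 4 of 10 (32.0% of all genes). Without control replicate 2 the adjusted count was 0 of 10 (3 unadjusted) with 16.9% of all genes changed, 8 of the 10 differences were below 0 (54.5% of all genes), and the median was -0.37. In Cy5 alone 0 of 10 genes passed limma's adjusted test (2 unadjusted), where 18.9% of all genes did, with a median of -0.51, or -0.23 without control replicate 2. In a bulk sample of sorted cells, fewer macrophages and less RNA of these genes per macrophage cannot be told apart.

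**Figure D1:**
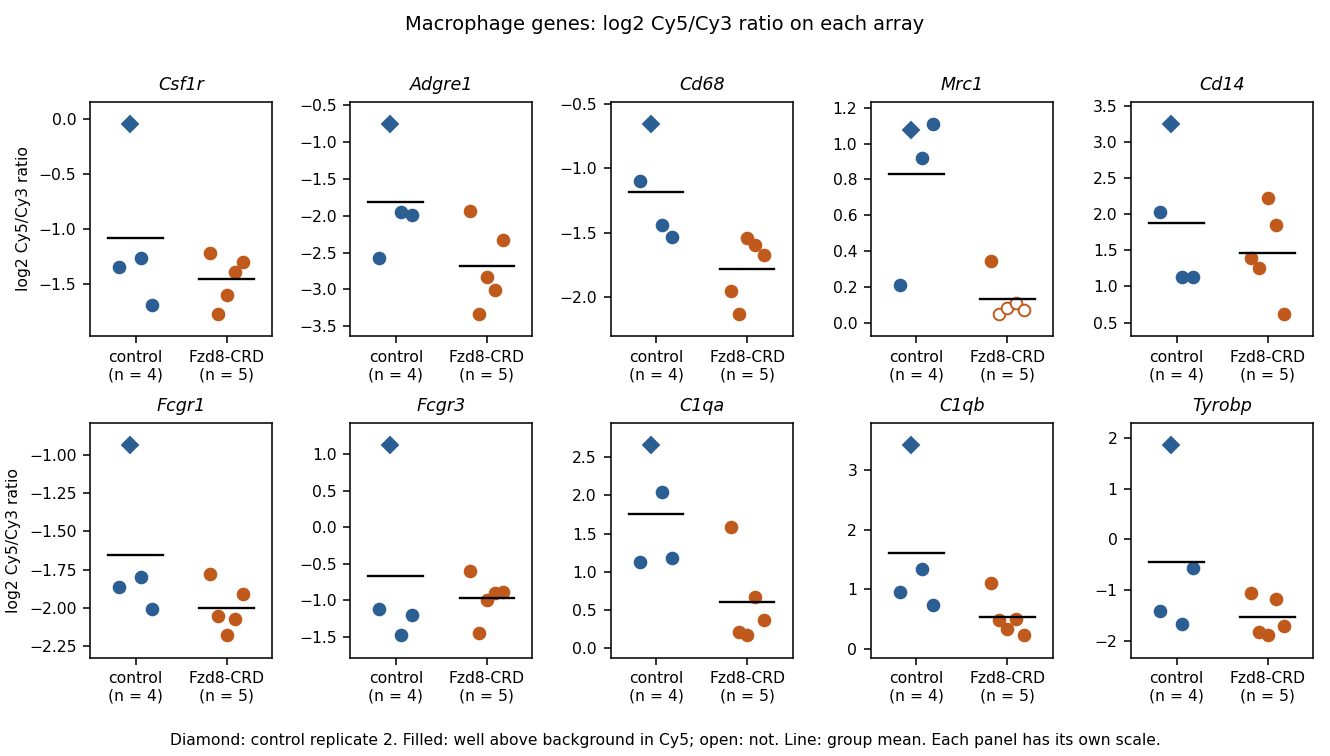
Log2 ratio of sample (Cy5) to reference (Cy3) for the 10 macrophage genes on each array, 4 controls and 5 Fzd8-CRD, with the group mean as a line and control replicate 2 as a diamond. Control replicate 2 was the highest array for 9 of the 10 genes, and the open Mrc1 points are the 4 Fzd8-CRD arrays not well above background.

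Mrc1 encodes the mannose receptor CD206, an endocytic lectin of tissue macrophages. Its log2 ratio was 0.34, 0.05, 0.08, 0.11 and 0.07 on Fzd8-CRD replicates 1 to 5 and 0.21, 1.08, 0.92 and 1.11 on control replicates 1 to 4. Control replicates 2, 3 and 4 were high, and control replicate 1 lay below Fzd8-CRD replicate 1, so the groups overlapped. Mrc1 fell by 0.70 log2 units (SE 0.19, limma adjusted p = 0.0377). No fold is given, since only 1 of 5 Fzd8-CRD arrays was well above background, against 4 of 4 controls, and the size of the fall rests on dim spots. The call did not hold without any 1 of the 5 Fzd8-CRD arrays or without control replicate 2, 3 or 4 (adjusted p from 0.0579 to 0.0944), nor with median centring in place of loess (0.0895), scaling between arrays (0.0732) or the deposited table (0.113). Without control replicate 2 the difference was -0.62 (adjusted p = 0.0631). In Cy5 alone it was -0.44 (SE 0.15, adjusted p = 0.0663), and -0.37 without control replicate 2 (adjusted p = 0.115). The reference signal of Mrc1 differed by -0.10 between the groups (adjusted p = 0.143).

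C1qa and C1qb encode chains of C1q, which starts the classical complement pathway, and with C1qc, the gene of the remaining chain, they are neighbours on chromosome 4 in the RefSeq gene table. The log2 ratio of C1qa was 1.59, 0.22, 0.18, 0.68 and 0.38 on Fzd8-CRD replicates 1 to 5 and 1.12, 2.65, 2.05 and 1.18 on the controls. Of the Fzd8-CRD arrays 4 lay below all controls, and Fzd8-CRD replicate 1 lay above control replicates 1 and 4. The C1qa difference was -1.14 (SE 0.38, adjusted p = 0.0753), and -0.84 without control replicate 2 (SE 0.35, adjusted p = 0.131). Without Fzd8-CRD replicate 1 it was -1.39 and passed the threshold (adjusted p = 0.0427). Cy5 alone gave C1qa a difference of -0.58 (SE 0.34, adjusted p = 0.246), and -0.30 without control replicate 2.

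For C1qb the log2 ratio was 1.10, 0.48, 0.33, 0.50 and 0.24 on the Fzd8-CRD arrays and 0.95, 3.41, 1.35 and 0.74 on the controls. Control replicate 2 stood far above every other array, and the groups overlapped. The difference of C1qb was -1.08 (SE 0.49, adjusted p = 0.162) and -0.48 without control replicate 2 (SE 0.22, adjusted p = 0.155). In Cy5 alone, C1qb differed by -0.65 (adjusted p = 0.365), and by -0.03 without that array (adjusted p = 0.943). C1qc, measured by its own probe, gave -1.19 (SE 0.41, adjusted p = 0.0807), and -0.997 without control replicate 2. None of the 3 chain genes passed the threshold, with or without that array.

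Tyrobp encodes DAP12, a membrane adapter that passes on signals from activating receptors of myeloid and natural killer cells. Its log2 ratio was -1.06, -1.83, -1.87, -1.16 and -1.70 on the Fzd8-CRD arrays and -1.41, 1.85, -1.66 and -0.57 on the controls. Control replicate 2 stood far above every other array, while control replicates 1 and 3 lay within the Fzd8-CRD range. The Tyrobp difference was -1.08 (SE 0.63, adjusted p = 0.266), and -0.31 without control replicate 2 (SE 0.29, adjusted p = 0.484). Cy5 alone gave a larger difference, -1.67 (SE 0.65, adjusted p = 0.0973), and -0.89 without that array (SE 0.32, adjusted p = 0.0814). The Tyrobp reference signal was itself lower on the Fzd8-CRD slides, by -0.49 (adjusted p = 2.15e-05), which enters the ratio with the opposite sign.

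Csf1r encodes the receptor for colony-stimulating factor 1 and interleukin 34. Its brightest probe gave log2 ratios of -1.22, -1.77, -1.60, -1.39 and -1.31 on the Fzd8-CRD arrays and -1.34, -0.05, -1.26 and -1.69 on the controls. With control replicate 2 left aside, both groups covered the same range. The Csf1r difference was -0.37 (SE 0.30, adjusted p = 0.406), and -0.03 without control replicate 2 (SE 0.16, adjusted p = 0.930). The Csf1r difference in Cy5 alone was -0.44 (SE 0.24, adjusted p = 0.213), and -0.18 without that array. A further Csf1r probe gave -0.0029 (SE 0.18), or 0.19 without that array, and the remaining one was not well above background on any of the 9 arrays.

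Adgre1 encodes a surface receptor whose antibody is used to stain mouse macrophages. The log2 ratio was -1.94, -3.33, -2.83, -3.00 and -2.33 on the Fzd8-CRD arrays and -2.57, -0.76, -1.95 and -1.99 on the controls. Fzd8-CRD replicate 1 lay at the level of control replicates 3 and 4, and control replicate 1 fell inside the Fzd8-CRD range. The Adgre1 difference was -0.87 (SE 0.38, adjusted p = 0.152), and -0.52 without control replicate 2 (SE 0.31, adjusted p = 0.278). With scaling between arrays it was -1.80 and passed (adjusted p = 0.0427). Its Cy5 signal alone differed by -0.67 (adjusted p = 0.178), and its reference signal was 0.36 higher on the Fzd8-CRD slides (adjusted p = 3.92e-05). The other Adgre1 probe was not well above background on any array.

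Cd68 encodes a glycoprotein of late endosomes and lysosomes. The log2 ratio of Cd68 was -1.95, -2.13, -1.54, -1.59 and -1.67 on the Fzd8-CRD arrays and -1.10, -0.66, -1.44 and -1.54 on the controls. All Fzd8-CRD arrays lay below all controls, which was so for 11.7% of all genes, but the ranges met at -1.54. The Cd68 difference was -0.59 (SE 0.20, adjusted p = 0.0808), and -0.42 without control replicate 2 (SE 0.17, adjusted p = 0.123). It passed with the scanner's own log ratio (-0.79, adjusted p = 0.0477) and with scaling between arrays (-1.22, adjusted p = 0.0424). In Cy5 alone the groups overlapped and the difference was -0.35 (adjusted p = 0.189); the Cd68 reference signal was 0.22 higher on the Fzd8-CRD slides (adjusted p = 0.00232).

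**Figure D2:**
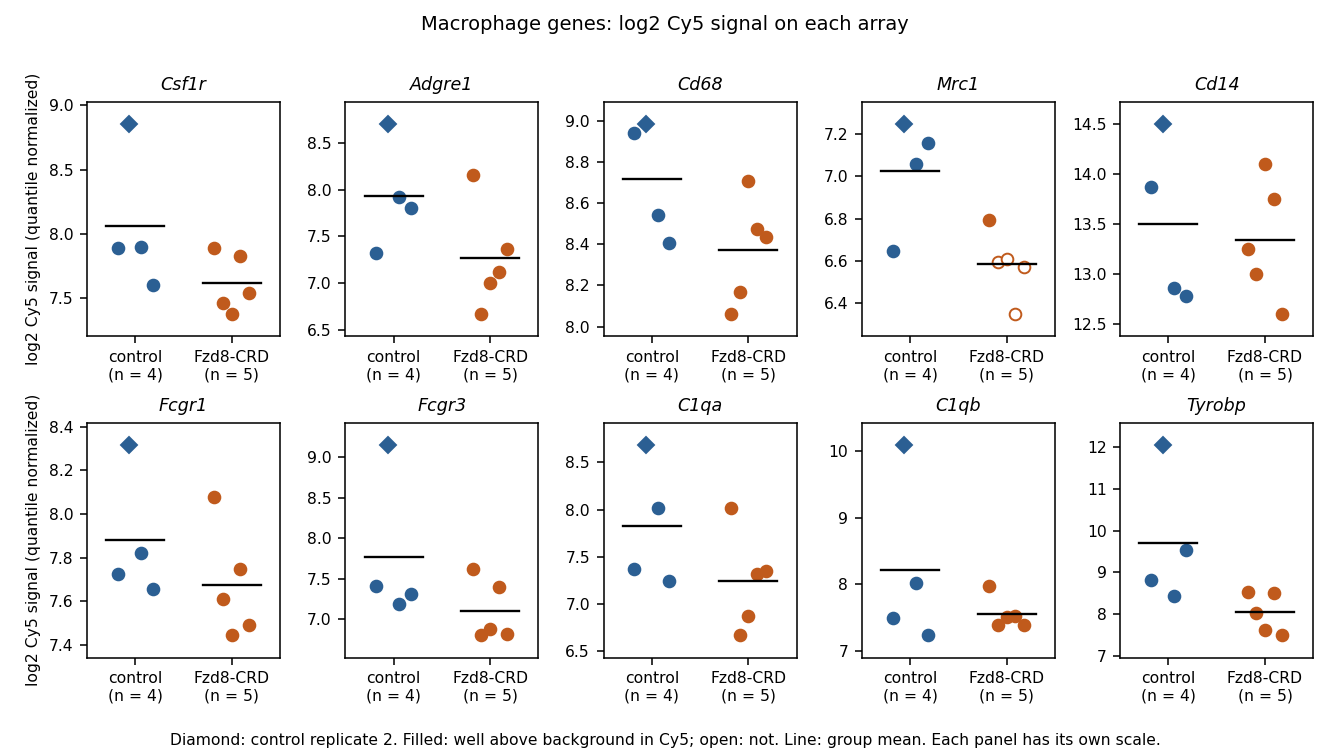
Log2 Cy5 signal of the sample RNA alone, quantile normalized between arrays, for the 10 macrophage genes, with the same symbols as in the plot of ratios. The groups overlapped for all 10 genes, and Tyrobp on control replicate 2 reached 12.05, against 7.50 to 9.54 on the other arrays.

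Cd14 encodes the co-receptor that hands lipopolysaccharide to TLR4. Its log2 ratio was 1.39, 1.25, 2.23, 1.85 and 0.62 on the Fzd8-CRD arrays and 2.03, 3.24, 1.13 and 1.13 on the controls. Both groups mixed high and low arrays, and control replicates 3 and 4 were below 4 of the 5 Fzd8-CRD arrays. The Cd14 difference was -0.42 (SE 0.47, adjusted p = 0.557) and changed sign to 0.04 without control replicate 2 (SE 0.36, adjusted p = 0.958). Log2 Cy5 of Cd14 lay between 12.61 and 14.50 over the 9 arrays, far above background on each, and differed by -0.16 between the groups (adjusted p = 0.797), or 0.17 without control replicate 2.

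Fcgr1 and Fcgr3 encode Fc gamma receptors that bind immunoglobulin G, Fcgr1 with high affinity and Fcgr3 with low affinity, and both signal through the shared chain Fcer1g. The brightest Fcgr1 probe gave log2 ratios of -1.78, -2.05, -2.18, -2.07 and -1.91 on the Fzd8-CRD arrays and -1.86, -0.94, -1.79 and -2.01 on the controls. Apart from control replicate 2, the arrays of both groups were interleaved. The Fcgr1 difference was -0.35 (SE 0.21, adjusted p = 0.288), and -0.11 without control replicate 2 (SE 0.12, adjusted p = 0.557). In Cy5 alone it was -0.20 (adjusted p = 0.43), and -0.06 without that array. The second Fcgr1 probe was well above background on 4 of 4 controls and 0 of 5 Fzd8-CRD arrays, yet its measured mean log2 ratio was -0.78 with Fzd8-CRD and -1.15 in controls. No difference is given for this probe, because its Fzd8-CRD signal is only a bound.

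For Fcgr3 the brightest probe gave log2 ratios of -0.60, -1.44, -0.99, -0.90 and -0.88 on the Fzd8-CRD arrays and -1.12, 1.12, -1.47 and -1.20 on the controls. Control replicate 2 was the 1 array above 0, and the other controls lay among or below the Fzd8-CRD arrays. The Fcgr3 difference was -0.29 (SE 0.48, adjusted p = 0.696) and turned to 0.30 without control replicate 2 (SE 0.19, adjusted p = 0.283). Its second probe gave -0.01 (SE 0.26, adjusted p = 0.993), and 0.31 without that array (adjusted p = 0.13). Cy5 alone gave -0.66 (adjusted p = 0.247), and -0.20 without control replicate 2.

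**Figure D3:**
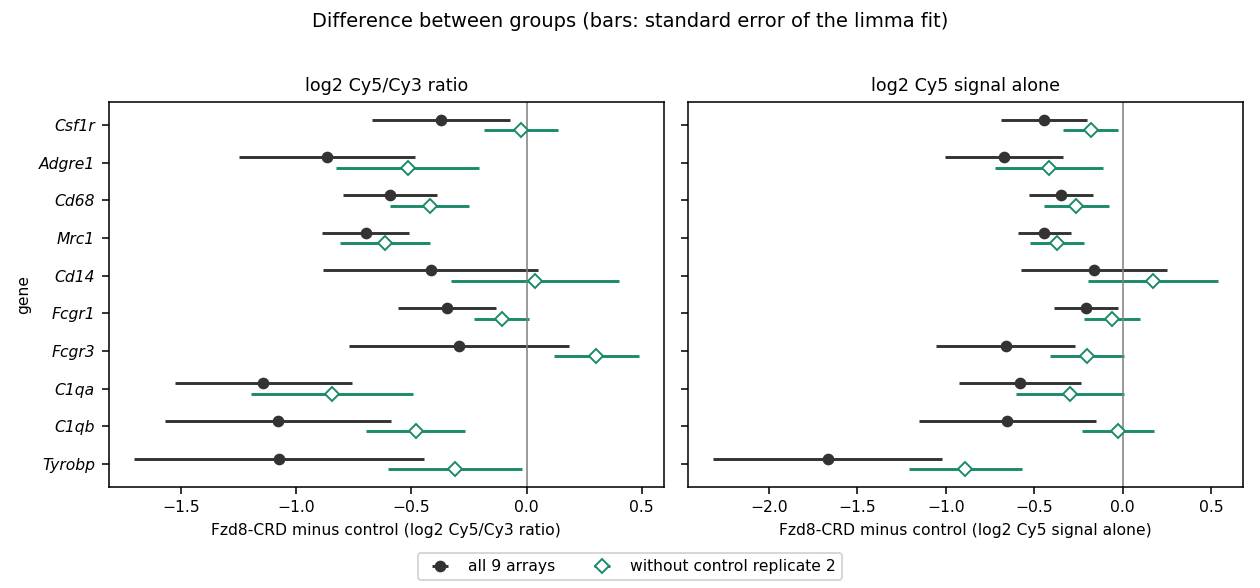
Difference between the groups (Fzd8-CRD minus control, log2) with its standard error for each macrophage gene, in the ratio (left) and in Cy5 alone (right), over all 9 arrays and without control replicate 2. In the ratio, Cd14 and Fcgr3 moved from below 0 to above 0 without that array, while Mrc1 moved from -0.70 to -0.62.

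The reference channel by itself separated the groups for 6 of the 10 genes, at a share of 59.0% over all genes. It was higher on the Fzd8-CRD slides for Adgre1, Cd68, Fcgr1 (0.24) and Cd14 (0.17), and lower for Fcgr3 (-0.19) and Tyrobp. Beyond the Cy5 values given, the part of these shifts in the ratio differences was not tested.

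Shared variation of the 10 genes across arrays lay largely on control replicate 2. The mean of their ratios, each centred on the gene's own mean, was 1.56 on control replicate 2, between -0.05 and 0.05 on the other controls, 0.05 on Fzd8-CRD replicate 1 and between -0.59 and -0.24 on Fzd8-CRD replicates 2 to 5. Over the 9 arrays each gene correlated with this mean, which it enters, at 0.696 (Mrc1) to 0.977 (C1qb). Without control replicate 2 the range over 8 arrays was 0.037 (Cd14) to 0.911 (C1qa), with Fcgr3 at 0.159, so the 10 genes did not all vary together on those arrays. Outside the 10 genes, those most like the mean over 9 arrays were Gpr65 (r = 0.985), Ccl28 (0.984), Lrrc18 (0.983), Olfr1411 (0.982), Ms4a6b (0.980), ENSMUST00000065731 (0.980), LOC667984 (0.979) and Ndst3 (0.979). Without control replicate 2 their correlations were 0.825 (Ndst3) to 0.916 (Ms4a6b). Ccl28, Lrrc18, Olfr1411 and Ndst3 were well above background on 4 of the 9 arrays and ENSMUST00000065731 on 5. Gpr65 and LOC667984 were so on 6 and Ms4a6b on 8, so these correlations rest in part on dim spots. Gpr65, an acid-sensing receptor, was 1.19 on control replicate 2 and between -1.43 and -0.52 elsewhere. Ms4a6b was 4.05 there and between -0.01 and 1.52 elsewhere, and its difference was -1.64 (adjusted p = 0.0771), and -0.96 without that array (adjusted p = 0.0313).

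Promoters are given because the macrophage factor PU.1 binds sites with the core GAGGAA. The gene of PU.1, Spi1, was well above background on 1 array at most and was not tested. RefSeq windows (build GRCm38.p6) from 250 bases before to 50 after the start were found for 5 of the 10 genes: Fcgr3, Mrc1, Fcgr1, C1qb and Cd68. All 5 hold GAGGAA on either strand (TTCCTC on the reverse), as do 31.3% of 27025 genes with a window and 28.3% of 32851 windows. Stretches around matches are shown with the matches in capitals. They lie at chr2:14229204-14229413 (plus) for Mrc1, chr3:96293989-96294054 (minus) for Fcgr1 and chr4:136886201-136886260 (minus) for C1qb.
Mrc1: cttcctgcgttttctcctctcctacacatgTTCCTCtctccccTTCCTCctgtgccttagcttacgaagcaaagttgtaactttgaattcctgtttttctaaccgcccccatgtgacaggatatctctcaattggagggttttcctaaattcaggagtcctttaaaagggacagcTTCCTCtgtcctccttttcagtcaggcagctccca
Fcgr1: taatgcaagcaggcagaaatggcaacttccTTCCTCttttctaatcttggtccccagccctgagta
C1qb: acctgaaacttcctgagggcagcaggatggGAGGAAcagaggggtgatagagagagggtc
Mrc1 has 3 matches, at -180, -167 and -35 from the start, Fcgr1 has 1 at -55 and C1qb has 1 at -30. These are letter matches, and binding was not measured.

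Among 131 other macrophage-related genes in 10 lists, 116 were tested, of which 15 fell and 3 rose. These are 15.5% of the tested list genes, near the 14.3% of all genes that changed (7.75% fell and 6.60% rose). Their median difference was -0.38. Without control replicate 2 it was -0.12, and 17 fell and 5 rose (19.0%, against 16.9% of all genes). Chemokines and receptors that draw macrophages held 6 of these falls among 14 tested (median -1.03, or -0.72 without control replicate 2). Ccl4 and Ccl3, which attract monocytes, fell by 4.17 (SE 0.47, adjusted p = 0.0028) and 2.18 (SE 0.35, adjusted p = 0.00657). Ccl4 lay between -2.22 and -0.22 on the Fzd8-CRD arrays and between 2.03 and 3.90 on the controls. The monocyte attractant Ccl2 fell by 1.16 (adjusted p = 0.032, and 0.0525 without control replicate 2). In Cy5 alone Ccl4 fell by 4.09. Ccl9 fell by 0.73 (limma adjusted p = 0.0421) and Ccr2 by 0.50 (adjusted p = 0.0363), both named after their values were seen. Ccr2 was well above background on 4 arrays. Every control detected 14 of 14 genes of this list, so Ccr2 was kept through the controls alone. The size of its fall rests on dim spots, and in Cy5 alone Ccr2 did not pass (-0.29, adjusted p = 0.159).

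Counts for receptors and adapters close to the 10 genes stand beside 14.3% of all genes that changed. At an unadjusted p under 0.05, limma gave 32.0% of all genes. In lists this short 1 gene moves the share widely. Among Fc receptors and adapters 0 of 11 did by limma (1 at an unadjusted p under 0.05; median -0.48, or -0.12 without control replicate 2); the beta-glucan receptor gene Clec7a had the largest difference, -1.21 (SE 0.65, adjusted p = 0.229), or -0.51 without control replicate 2. The colony-stimulating factor axis also had 0 of 7 (3 unadjusted; median -0.80, or -0.43 without control replicate 2), with Csf2rb, the shared receptor chain for several cytokines, at -0.95 (adjusted p = 0.143). Toll-like receptors and CD14 partners had 0 of 12 (2 unadjusted; median -0.09, or -0.10 without control replicate 2), with Lbp, which delivers lipopolysaccharide to CD14, at -0.85 (adjusted p = 0.0639). Of scavenger and lectin receptors 2 of 13 fell (3 without control replicate 2), where 7.75% of all genes fell: Stab1 by 1.08 (adjusted p = 0.0215) and Clec4n by 0.99 (adjusted p = 0.024); in Cy5 alone Stab1 did not pass (adjusted p = 0.0773). In complement 2 of 12 fell, and C2, a protease precursor of the classical pathway, fell by 1.75 (adjusted p = 0.0256).

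Other phagocyte lists held both falls and rises, as did all genes, of which 7.75% fell and 6.60% rose. Cyba, a membrane subunit of the phagocyte oxidase that other cells express too, fell by 1.15 (SE 0.16, adjusted p = 0.0052) as 1 of 6 oxidase genes, of which 0 rose (1 without control replicate 2). Axl, a receptor for dying cells that is not restricted to macrophages, rose by 0.97 (SE 0.21, adjusted p = 0.0178) as 1 of 18 phagocyte surface and lysosome genes, of which 0 fell (2 rose without control replicate 2). Of 9 transcription factors, Cebpb rose by 0.84 (adjusted p = 0.0243) and Batf3 fell by 0.72 (adjusted p = 0.0195; 0.111 in Cy5 alone). Among 14 activation genes, Il6 fell by 2.46 (adjusted p = 0.00352) and Arg1, an arginine-degrading enzyme, by 2.02 (adjusted p = 0.00924), and Apoe, which carries lipids, rose by 1.12 (adjusted p = 0.00949). Chil3 fell by 1.65 in the ratio (adjusted p = 0.0266), but its Cy5 signal alone differed by 0.16 (adjusted p = 0.80) and its reference signal was 1.68 higher on the Fzd8-CRD slides.

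Markers of other cells moved as well, and their part in the macrophage values was not tested. The counts by list stand beside 7.75% of all genes that fell and 6.60% that rose, and over lists this short 1 gene moves the share widely. All 12 endothelial genes fell (median -2.08, and 12 of 12 without control replicate 2); Icam2 fell by 1.70 (adjusted p = 0.00274) and Pecam1 by 1.23 (adjusted p = 0.00307). The summed Cy5 signal of the endothelial list ran from 2131 to 4356 on the Fzd8-CRD arrays and from 8043 to 11790 on the controls. For the 10 macrophage genes that sum ran from 7833 to 19142 with Fzd8-CRD and from 9347 to 31313 in controls, with the highest of these on control replicate 2 and the next control at 17167. Cd14 made up 73.98% to 91.7% of this sum on each array. The other 9 genes together gave 1500 to 2249 with Fzd8-CRD, 8148 on control replicate 2 and 2167 to 2307 on the other controls. Red cell genes fell for 3 of 4 tested. The globin gene Hba-a1 fell by 4.31 (adjusted p = 0.00668) and Hbb-bt, detected above background by 3 of the 5 Fzd8-CRD arrays, by 6.47 (adjusted p = 0.00864). Without control replicate 2 the differences were -3.49 for Hba-a1 (adjusted p = 0.00247) and -5.36 for Hbb-bt (adjusted p = 0.00769). The summed Cy5 signal of the 4 red cell genes tested was 856097 on control replicate 2, 11033 to 45165 on the other controls and 479 to 1805 on the Fzd8-CRD arrays.

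Among leukocyte markers, mast cell genes fell for 2 of 6 (3 without control replicate 2). On each control 6 of 6 were well above background, and on the Fzd8-CRD arrays 1 to 3. The filter of at least 4 arrays kept Cpa3, Mcpt4 and Tpsb2 through the 4 controls alone. These counts therefore lean on genes kept because the controls were high. The mast cell protease gene Mcpt4, which no Fzd8-CRD array measured well above background, fell in the ratio (limma adjusted p = 0.0312, and 0.0114 without control replicate 2) and did not pass in Cy5 alone (adjusted p = 0.0635). Its Cy5 signal, quantile normalized, was higher in controls by at least 4.42-fold, or at least 2.38-fold without control replicate 2. These bounds set the control mean against the lowest signal well above background or the measured signal, whichever was higher on each array, and are open to dye bias. The same bounds after loess were 5.10-fold and 2.75-fold. Cma1, also a mast cell protease gene, passed the background call on 4 of 4 controls but just 1 Fzd8-CRD array, so the size of its fall rests on dim spots. It fell by 2.40 (adjusted p = 0.0394), and its difference was -1.57 without control replicate 2 (adjusted p = 0.00618). Of 7 dendritic cell genes 2 fell, Cd83 by 2.16 (adjusted p = 0.00966) and Ccr7 by 1.15 (adjusted p = 0.023, and 0.156 in Cy5 alone); macrophages can express Cd83 too. Of 9 neutrophil genes 0 passed limma's adjusted test (1 unadjusted), and 1 rose without control replicate 2. Camp stood at -0.51 and Ngp at -0.49 (adjusted p = 0.118 and 0.171), and passed the background call on 2 and 1 of the Fzd8-CRD arrays. In the T and NK cell list Cd8b1 rose by 1.00 (adjusted p = 0.00964), 1 of 12, though the mean of its probes gave -0.33, and Gzma, detected above background by 2 of the 5 Fzd8-CRD arrays, stood at -1.62 (adjusted p = 0.0858), or -1.02 without control replicate 2, when 1 gene of the list fell. In the B and plasma cell list Pou2af1 rose by 1.07 (adjusted p = 0.0201), 1 of 7, though scaling between arrays gave -0.21, and Ms4a1, detected above background by 1 Fzd8-CRD array, stood at 0.53 (adjusted p = 0.219). Control replicate 2 had the most summed signal of T and NK cell genes and of neutrophil genes, and the least of B and plasma cell genes. The summed Cy5 signal of the T and NK cell list was 9684 there, 2306 to 2377 on the other controls and 2078 to 3180 on the Fzd8-CRD arrays. For the neutrophil list it was 104066 there, 5260 to 14660 on the other controls and 3928 to 26243 on the Fzd8-CRD arrays. For the B and plasma cell list it was 2729 there, 3191 to 3969 on the other controls and 4066 to 9794 on the Fzd8-CRD arrays. Bright genes weigh most in such a sum. The list median of log2 ratios, each centred on its gene's mean, was instead highest on control replicate 2, at 0.169. It was -0.19 to -0.17 on the other controls and -0.17 to 0.12 on the Fzd8-CRD arrays. The 2 measures thus rank that array in opposite ways for this list. Among defining markers, Clec9a of dendritic cells and Pax5 of B cells were well above background on 0 arrays, and Ncr1 of NK cells on 1.

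Fibroblast genes fell for 3 of 12, where 7.75% of all genes fell (2 fell and 1 rose without control replicate 2). Thy1 fell by 1.95 (adjusted p = 0.0129) and Fap, detected above background by 3 of the 5 Fzd8-CRD arrays, by 0.90 (adjusted p = 0.0176). Of 14 epithelial genes 3 fell and 1 rose, and without control replicate 2 1 fell and 2 rose. Esrp1, an epithelial splicing factor, fell by 1.58 (adjusted p = 0.00919), and the basal keratin Krt5 rose by 0.80 in the ratio (adjusted p = 0.00714), with 0.07 in Cy5 alone (adjusted p = 0.845).

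**Figure D4:**
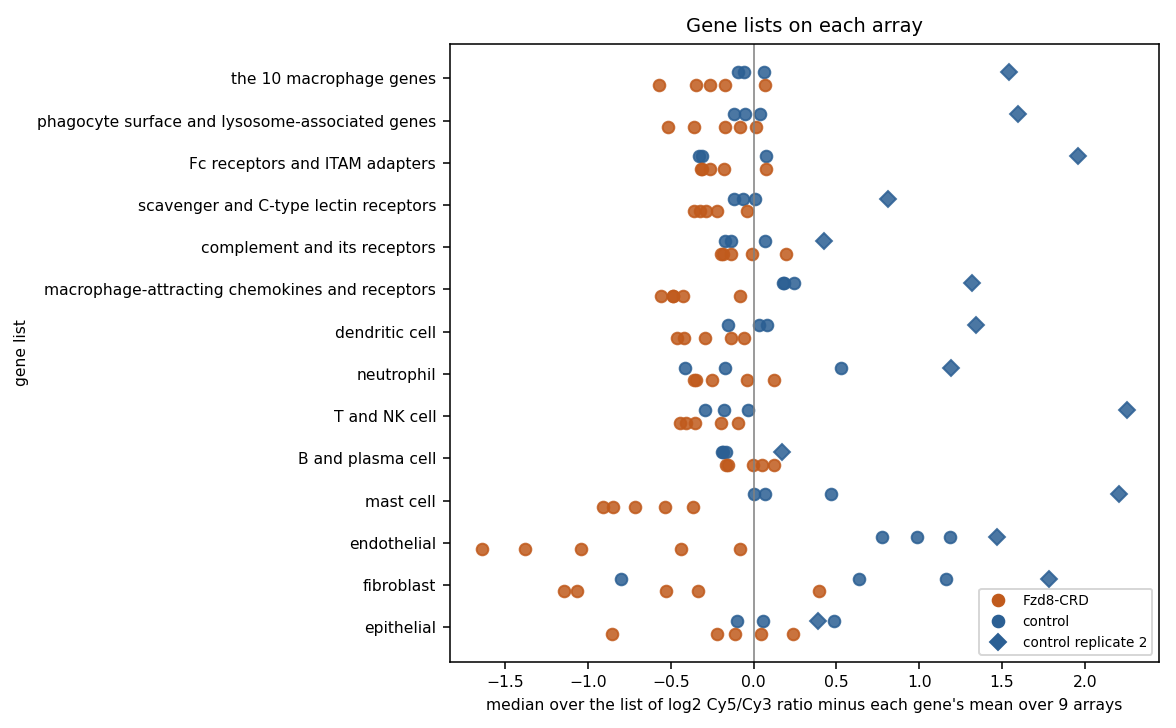
Median over each gene list of the log2 ratio minus each gene's mean over the 9 arrays, 1 point per array, with control replicate 2 as a diamond. For the 10 macrophage genes control replicate 2 stood at 1.54 and the other controls between -0.09 and 0.06. Fzd8-CRD replicate 1 stood at 0.07, above those other controls, and Fzd8-CRD replicates 2 to 5 between -0.57 and -0.17, below all controls. For endothelial genes all 4 controls stood above all 5 Fzd8-CRD arrays.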

How the data were processed

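Per the file headers, Agilent Feature Extraction (version 9.5.3.1) wrote the spot intensities used here, foreground means and local background medians, and its own log10 ratio. A table of linear ratios deposited for the series follows that ratio (r of at least 0.999995) and has medians of 0.833 to 0.954 per array. From the intensities, log2 ratios of Cy5 over Cy3 were computed in limma 3.58.1 (R 4.3.3, package data.table of version 1.17.8) with normexp (offset 50) and loess, leaving out 1639 control spots and 1229 outlier spots; 0 spots were saturated. The offset understates differences of dim genes. Each gene took its brightest kept probe, which left 26835 probes and 18270 genes. Groups were taken from the treatment label, and replicate numbers follow accession order. Tests were limma's moderated fit over all genes with Benjamini-Hochberg adjustment at 0.05, checked on simulated data; p-values measure the spread between these arrays, and their number limits precision. Cy5 and Cy3 alone were quantile normalized between arrays. Because the labels name the reference RNA in 3 ways (universal mouse, universal human, pooled strains), a ratio is no level.

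The genes and lists were chosen with earlier results of these data known. Named were the 10 genes, up to 4 called genes with the smallest p per macrophage list (or the largest difference), the 2 with the smallest p per cell type list, and the 8 genes most like the mean. C1qc, genes named only for how often they were detected, and the genes named as chosen after their values were seen, fall outside this rule. Of the genes the rule names, 2 are not reported here. Alternatives changed background correction, normalization, channel, filters, probe choice, weights, slide block and the arrays included.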

Additional observations from a re-analysis of the deposited data

Results flagged for a closer look

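Within each group, the highest or lowest array was compared with the rest for 60 sets of values, and 11 stood apart by Dixon's criterion, where chance gives about 1 in 20. Fcgr3 on control replicate 2 had a log2 ratio of 1.12, against -1.47 to -1.12 on the other controls. Mrc1 on Fzd8-CRD replicate 1 had 0.344, against 0.05 to 0.11 on the other Fzd8-CRD arrays. The median centred ratio of the 10 macrophage genes was 1.54 on control replicate 2. The same array was highest among controls for scavenger and lectin receptors (0.811), phagocyte surface and lysosome genes (1.60), activation genes (0.660), chemokines and receptors (1.32), dendritic cell genes (1.34), T and NK cell genes (2.25) and B and plasma cell genes (0.169). Fzd8-CRD replicate 1 was the highest of its group for chemokines and receptors (-0.0833), against -0.56 to -0.43 on the others. No explanation was tested.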

How the results depend on the processing

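The genes past the threshold among the 10 depended on the processing. In place of 1 (Mrc1) there were 2 with no background correction or the scanner's log ratio (Cd68 and Mrc1), 2 with scaling between arrays (Adgre1 and Cd68), 2 with array weights (C1qa and Mrc1), 3 with slide as a random block (C1qa, Cd68 and Mrc1), and 0 with median centring, Cy5 alone, a filter of well above background on all arrays (which removes Mrc1) or the closest pairs of arrays averaged (this last was chosen after seeing the data). Cy3 alone gave 6. The slide block fit used a correlation within slides of -0.168, and all 4 controls share 1 slide. It therefore cannot separate slide from treatment, and its count is no correction for slide. Leaving out 1 array gave 0 to 1 genes in the ratio, 0 to 1 in Cy5 alone and 0 to 1 probes; the scanner's log ratio gave 4 probes. Quantile normalization of mean intensity leaves ratios as they are.

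For the 10 wider lists the count of 18 became 29 with the scanner's log ratio and 29 with the deposited table, 9 with median centring, 61 in Cy3 alone, 34 with array weights, 39 with slide as a block, 4 with closest pairs averaged and 11 to 22 leaving out 1 array (11 without control replicate 3). Over all genes the count of 2621 became 613, 10782, 6001, 5502 and 338 with median centring, Cy3 alone, array weights, slide block and closest pairs, and 1340 (without control replicate 3) to 3093 (without control replicate 2) leaving out 1 array. The cause was not tested; averaging pairs leaves fewer arrays.

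Signs turned for some genes. Cd14 was 0.24 with scaling, 0.22 with array weights and, leaving out 1 array, -0.67 to 0.036 (without control replicate 2). Fcgr3 was 0.39 with array weights and -0.56 to 0.30 (without control replicate 2) leaving out 1 array, and Fcgr1 was 0.013 as the mean of its probes. Chil3 was 0.16 in Cy5 alone, Cd8b1 -0.33 as the mean of its probes and Pou2af1 -0.21 with scaling. Ms4a1 was -1.04 with the scanner's log ratio and with the deposited table, -1.05 with scaling and -0.19 in Cy5 alone. In Cy3 alone, signs opposite to the ratio were found for Csf1r (0.0096), Adgre1 (0.36), Cd68 (0.22), Cd14 (0.17), Fcgr1 (0.24), C1qb (0.11), Batf3 (0.12), C2 (0.055), Stab1 (0.21), Axl (-0.16), Cyba (0.027), Lbp (0.12), Arg1 (0.088), Chil3 (1.68), Ccl4 (0.17), Ccl3 (0.35), Camp (0.043), Ccr7 (0.036), Cd8b1 (-0.40), Ms4a1 (-0.061), Icam2 (0.058), Pecam1 (0.23), Thy1 (0.35) and Krt5 (-0.80).

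Of 239 values of the 10 genes under alternatives, 202 kept direction and side of the threshold, 14 lost and 11 gained the call, and 12 changed sign. The tally is no measure of robustness. It counts quantile normalization of mean intensity, which cannot change a ratio, and Cy3 alone, which measures the reference and gave part of the sign changes. A gene that stayed short of the threshold with the same sign counts as kept. No paired analysis was possible because the replicate numbers follow accession order and pair no arrays.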
